A study of Homo sapiens with 12 samples.

Results

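Classical cadherins were followed across 4 groups of cells from a human breast cancer line, as 8 genes chosen by symbol: CDH1, CDH2, CDH3, CDH4, CDH5, CDH6, CDH11 and CDH13. A gene was read from a probe set, the group of array probes summarised into 1 value, whose only gene symbol was that gene. Of the 8 genes, 6 had such a probe set and were read among 18417 genes in all. CDH4 and CDH13 carried none and were not analysed here. Each of the 6 genes had 1 probe set, so no choice among probe sets entered their values.

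RNA was measured on Affymetrix Human Gene 1.0 ST arrays in the 1833 subline of MDA-MB-231, a triple-negative human breast cancer line with a mesenchymal appearance, of which this subline is known for growth in bone. The shHMGA2 group (3 arrays) carried an shRNA against HMGA2, a chromatin protein of embryonic and tumour cells, in the lentiviral vector pLKO.1 under puromycin. The Tet1 group (2 arrays) carried a Flag-tagged inducible Tet1, an enzyme that oxidises 5-methylcytosine in DNA, and the HOXA9 group (2 arrays) an inducible HOXA9, a homeobox transcription factor. The 2 inducible lines expressed a Tet-On regulator as well, were kept in puromycin and G418 for selection, and grew in serum approved for tetracycline systems. The control group (3 arrays) is labelled only as 1833 cells, with no vector named, and neither the inducing agent nor its duration is given in the labels. For Tet1 and HOXA9 the source name says 1834 where title and cell line say 1833. The labels call the arrays biological replicates without saying whether a line is 1 clone or a pool, and p-values measure the spread between these arrays. Replicate 3 of Tet1 and of HOXA9 is an average of that group's other columns and was left out. The series asks which genes HMGA2 depletion, Tet1 or HOXA9 change.

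Cadherins are calcium-dependent adhesion proteins that span the plasma membrane and bind cadherins of a neighbouring cell. Their cytoplasmic tails bind beta-catenin and p120-catenin, and alpha-catenin couples the complex to actin. Type I members include CDH1 (E-cadherin, of epithelia), CDH2 (N-cadherin, of neural and mesenchymal cells), CDH3 (P-cadherin, of basal epithelium) and CDH4 (R-cadherin, of retina). Type II members include CDH5 (VE-cadherin, of endothelium), CDH6 (K-cadherin, of kidney and brain) and CDH11 (OB-cadherin, of osteoblasts and mesenchyme). CDH13 (T-cadherin) is anchored by a lipid and lacks the tail. Carcinoma cells that lose E-cadherin often express N-cadherin or cadherin-11, and MDA-MB-231 is known as a line without E-cadherin.

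All values below are log2 expression as deposited, and the tests compare a probe set's value only with itself across arrays. Percentiles within an array and summed levels set different probe sets side by side and are rough guides to level only. The arrays formed 2 sets, control with shHMGA2 and Tet1 with HOXA9. Over all probe sets, arrays of the first set correlated at 0.986 to 0.998, arrays of the second at 0.993 to 0.997, and arrays of different sets at 0.945 to 0.966. Every group lay wholly in 1 set, so in comparisons across the sets array set, any subline difference and group cannot be told apart. The median of an array was 7.66 to 7.71 in Tet1 and HOXA9, against 7.21 to 7.28 in control and shHMGA2. Those comparisons were therefore also run after quantile normalization over the 10 arrays and after setting the array medians equal. The table has no detection calls, and so a mean under 6.26, the 30th percentile of the table, may be background alone. All 6 mesenchymal line markers (VIM, CD44, CAV1, AXL, MSN, LOX) had group means above that percentile in every group. The only probe set for HMGA2 is shared with ELAC2. It was 8.81 ± 0.29 in shHMGA2 and 9.56 ± 0.087 in control (SD, n = 3 each; limma adjusted p = 0.00315 over all probe sets). The shared probe set averaged 10.42 in Tet1 and 10.41 in HOXA9, higher than control by 0.86 and 0.85 (limma adjusted p = 0.000298 and 0.000349). ELAC2 in its own probe set differed from control by 0.13 in shHMGA2, -0.34 in Tet1 and -0.22 in HOXA9. TET1 was 7.07 ± 0.13 in Tet1 and 7.30 ± 0.14 in HOXA9 (SD, n = 2 each), and 8.97 ± 0.29 in shHMGA2, against 6.56 ± 0.11 in control (SD, n = 3 each). TET1 therefore did not mark the Tet1 arrays (log2 difference to HOXA9 -0.23, limma adjusted p = 0.69), and HOXA9 had no probe set of its own. The Tet1 and HOXA9 labels were thus not borne out by a targeted gene, and whether the TET1 probe set covers the introduced sequence was not tested.

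The RefSeq table of gene starts (GRCh38.p14) holds windows for 1 of the 6 measured cadherins, CDH2, the one with the largest span of group means. Its 2 annotated starts are shown because they differ in CG content, the substrate context of TET1. Each window runs from 250 bases before to 50 after the start, in the direction of transcription on the minus strand, with CG in capitals. The first lies at chr18:28177081-28177380 and the second at chr18:28036592-28036891.
CDH2 start 1: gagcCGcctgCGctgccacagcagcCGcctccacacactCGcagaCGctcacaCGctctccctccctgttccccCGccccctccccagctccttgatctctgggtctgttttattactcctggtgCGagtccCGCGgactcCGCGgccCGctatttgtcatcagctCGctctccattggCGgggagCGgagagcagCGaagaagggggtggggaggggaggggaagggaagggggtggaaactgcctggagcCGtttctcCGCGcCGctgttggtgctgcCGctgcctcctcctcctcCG
CDH2 start 2: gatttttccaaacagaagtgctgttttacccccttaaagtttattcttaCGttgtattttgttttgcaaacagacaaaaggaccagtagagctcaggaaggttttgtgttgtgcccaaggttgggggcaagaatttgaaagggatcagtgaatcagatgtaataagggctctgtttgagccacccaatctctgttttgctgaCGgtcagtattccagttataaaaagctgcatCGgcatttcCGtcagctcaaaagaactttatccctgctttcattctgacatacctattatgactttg
The first window holds 23 CG and has a G and C content of 67%, and the second holds 4 CG with 40.7%. Among 35116 such windows 96% hold at least 1 CG, the median is 14, and 64.2% hold fewer than the first CDH2 window and 24.5% fewer than the second. The E-box letters CAGGTG, read on both strands, occur in neither window and in 20.6% of all windows. The arrays gave 1 value per gene, so the start in use and the methylation of these CG were not measured.

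The shHMGA2 cells differed from control cells in 2 cadherins, in opposite directions. CDH2 (N-cadherin) was 6.96-fold higher and CDH11 (OB-cadherin) was 4.65-fold lower, while CDH1, CDH3, CDH5 and CDH6 did not pass the test. Of all genes tested, 26.2% were called at a limma adjusted p under 0.05, 13.6% higher and 12.6% lower. The 2 of 6 cadherins called are thus near that share. The sizes of the 2 changes lay far out, CDH2 at place 26 from the highest and CDH11 at place 3 from the lowest of 18417 differences.

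CDH2 measured 9.49, 9.65 and 10.19 in the shHMGA2 arrays, against 6.94, 7.10 and 6.90 in the control arrays. The groups did not overlap, and replicate 3 was the highest of the shHMGA2 arrays. The mean was 9.78 ± 0.37 in shHMGA2 and 6.98 ± 0.11 in control (SD, n = 3 each), a log2 difference of 2.80 (SE 0.14, 95% interval 2.49 to 3.11, limma adjusted p = 1.06e-07). Within the array, CDH2 stood on average at percentile 80.8 of probe sets in shHMGA2 and at percentile 46.3 in control. Leaving out any 1 array kept the difference between 2.59 and 2.94. In bulk RNA a change in the share of cells that express CDH2 and a change in RNA per cell cannot be told apart, and this holds for every value here.

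CDH11 measured 7.94, 8.53 and 7.66 in the shHMGA2 arrays, against 9.80, 10.39 and 10.58 in the control arrays. Every shHMGA2 array lay below every control array, the nearest being shHMGA2 replicate 2 and control replicate 1. The mean was 8.04 ± 0.44 in shHMGA2 and 10.26 ± 0.41 in control (SD, n = 3 each), a log2 difference of -2.22 (SE 0.21, 95% interval -2.67 to -1.76, limma adjusted p = 1.74e-05). Its percentile within the array was 60.8 in shHMGA2 and 85.4 in control, so CDH11 remained above the middle of the array after the fall. Leaving out any 1 array kept the difference between -2.46 and -2.02.

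CDH1 measured 5.78, 5.84 and 5.84 in the shHMGA2 arrays, against 5.72, 5.65 and 5.61 in the control arrays. The groups did not overlap, but the log2 difference of 0.16 (95% interval 0.01 to 0.30) missed the threshold (limma adjusted p = 0.105). CDH1 means lay under the 30th percentile in both groups, and counting all 12 deposited columns brought the same difference to an adjusted p of 0.0428. CDH1, the cadherin whose loss is the usual counterpart of N-cadherin gain, was thus not known to lie above background in either group. CDH3 measured 6.33, 6.33 and 6.49 in the shHMGA2 arrays, against 6.42, 6.44 and 6.42 in the control arrays, which overlap. Its log2 difference was -0.04 (95% interval -0.17 to 0.08, limma adjusted p = 0.645). CDH5 measured 5.94, 5.91 and 6.03 in the shHMGA2 arrays, against 5.95, 6.01 and 5.92 in the control arrays, and the groups overlap. Its 95% interval for the log2 difference ran from -0.16 to 0.16 (limma adjusted p = 0.99). CDH6 measured 5.45, 5.45 and 5.54 in the shHMGA2 arrays, against 5.63, 5.63 and 5.54 in the control arrays, a log2 difference of -0.12 (95% interval -0.26 to 0.02, limma adjusted p = 0.211).

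**Figure D1:**
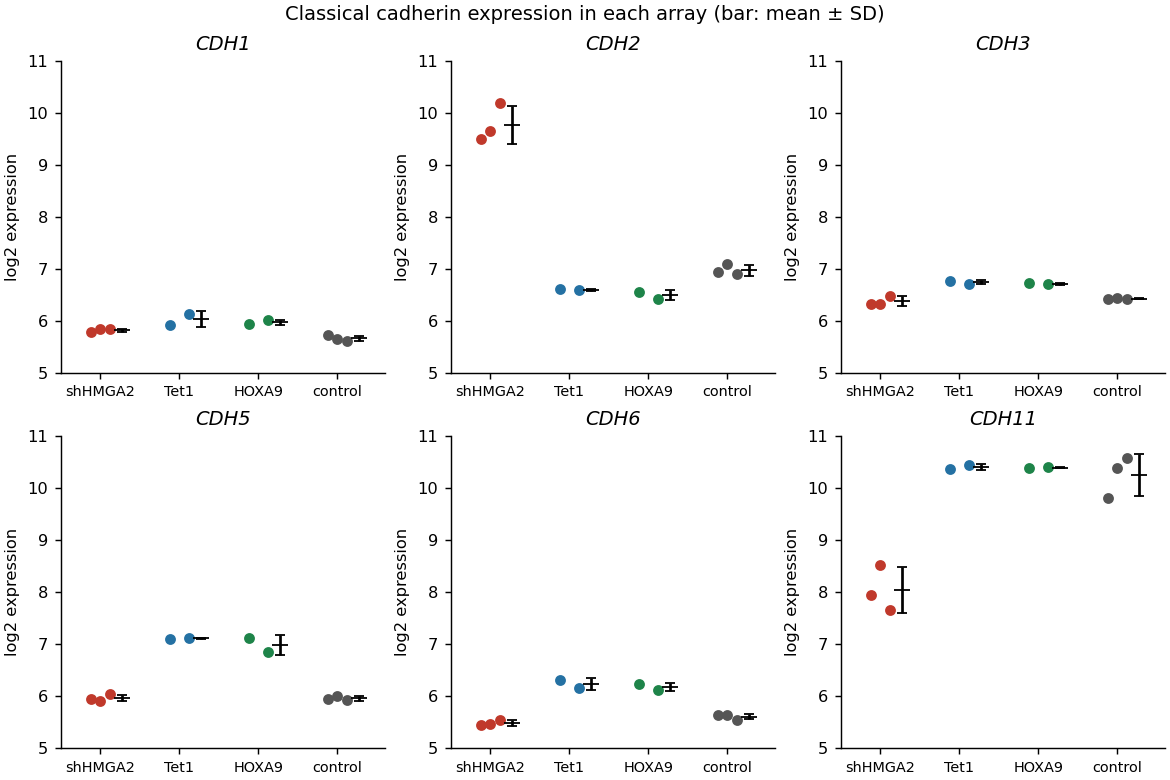
Log2 expression (vertical axis, 5 to 11 in every panel) of each measured cadherin on each array, 1 panel per gene, for shHMGA2, Tet1, HOXA9 and control. Points are arrays, and the bar right of them is the group mean with its SD (n = 3 for shHMGA2 and control, 2 for Tet1 and HOXA9). CDH2 is high in shHMGA2 (9.49 to 10.19) and CDH11 is low there (7.66 to 8.53), and neither range is reached in another group.

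The rest of the cadherin superfamily was counted in shHMGA2 cells beside 26.2% of all genes called, 13.6% higher and 12.6% lower. Among 12 other classical cadherins 0 were higher and 3 lower, with a median log2 difference of -0.08, against -0.03 over all genes. The called counts of this list and of the desmosomal list are near the share of all genes. The 3 were CDH18 (-0.93, SE 0.18, limma adjusted p = 0.00236), CDH12 (-0.87, SE 0.12, limma adjusted p = 0.00034) and CDH10 (-0.41, limma adjusted p = 0.0112), which are type II cadherins known from brain. CDH12 averaged 5.95 ± 0.087 in shHMGA2 and 6.82 ± 0.31 in control (SD, n = 3 each). Of the 7 desmosomal cadherins, which join cells at desmosomes, 2 were higher and 0 lower, with a median of -0.05. DSC3 (desmocollin 3) was higher by 1.77 (SE 0.21, limma adjusted p = 9.78e-05) and DSC2 (desmocollin 2) by 0.83 (SE 0.09, limma adjusted p = 3.76e-05).

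The protocadherins and atypical cadherins, 22 genes, had 8 higher and 2 lower, beside 13.6% and 12.6% of all genes, with a median of 0.06. PCDH10, a protocadherin of neural tissue that is often silenced by methylation in carcinomas, measured 9.48, 9.84 and 10.20 in the shHMGA2 arrays, against 7.05, 7.07 and 7.15 in the control arrays. As with CDH2 the groups did not overlap and replicate 3 was the highest (log2 difference 2.75, SE 0.13, limma adjusted p = 7.62e-08). PCDH7, another protocadherin, averaged 8.72 ± 0.29 in shHMGA2 and 7.07 ± 0.068 in control (SD, n = 3 each; limma adjusted p = 1.33e-06). The other 6 higher genes (PCDH18, PCDH9, PCDH17, CELSR2, PCDH19 and CELSR3) rose by 0.23 to 0.54. FAT4 and FAT1, giant cadherins of planar polarity and growth control, fell by 0.70 (limma adjusted p = 0.00092) and 0.33 (limma adjusted p = 0.00456).

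**Figure D2:**
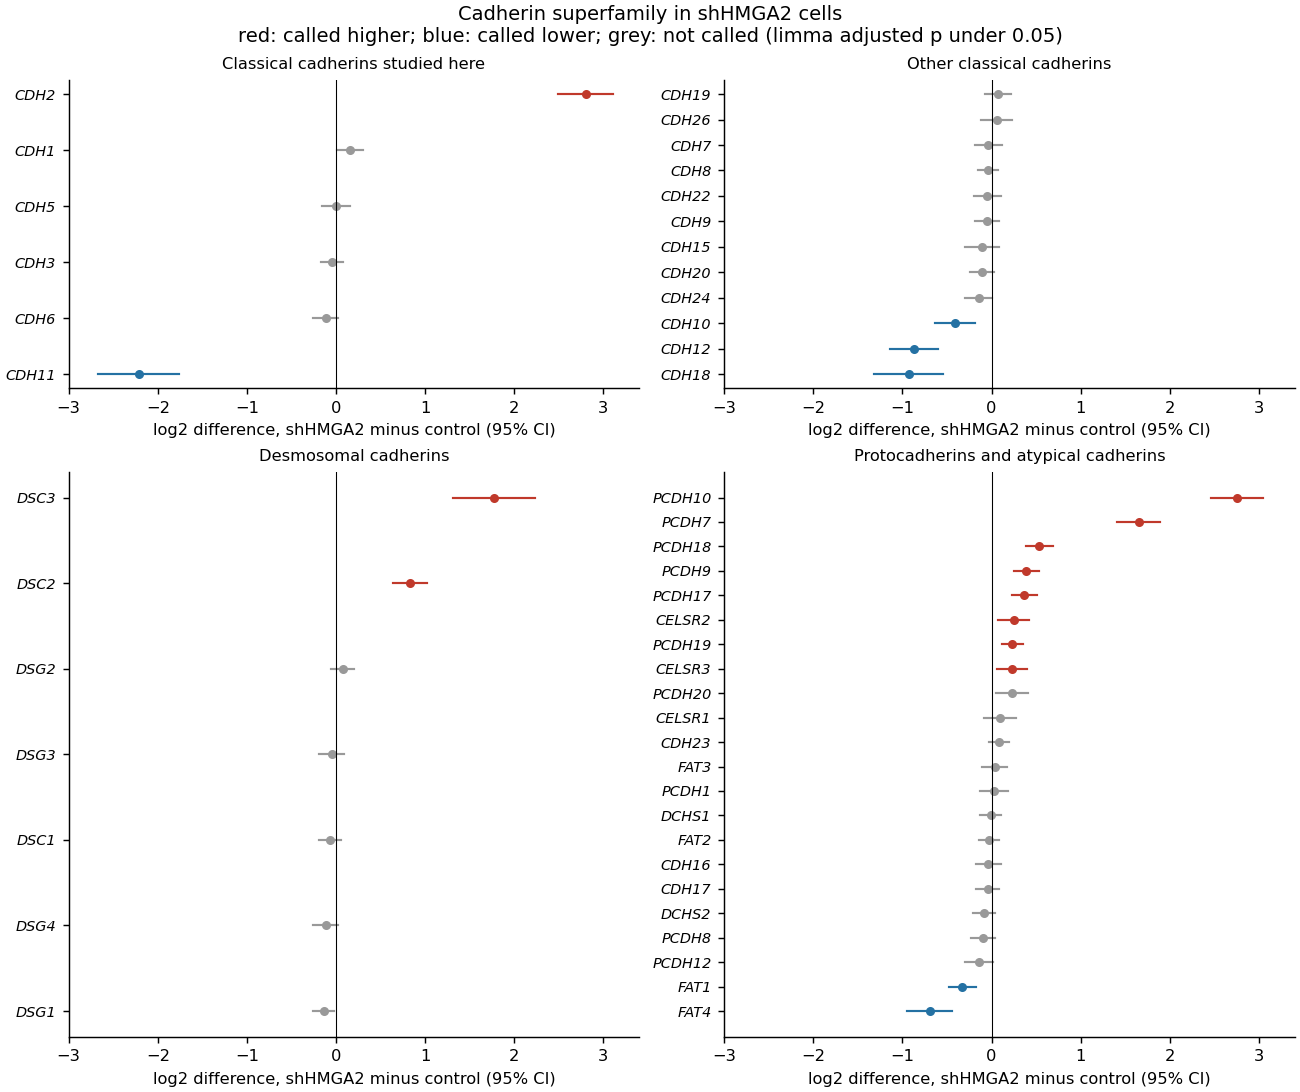
Log2 differences, shHMGA2 minus control (horizontal axis), with 95% intervals for the 6 measured cadherins, 12 other classical, 7 desmosomal and 22 proto- and atypical cadherins, each panel sorted by value. Colour marks genes called higher, lower or neither by limma. CDH2, PCDH10, DSC3 and PCDH7 stand out to the right and CDH11 to the left, and most other genes lie near 0.

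The genes that act on or with cadherins were counted in lists, beside 26.2% of all genes called. Of 13 catenins and junction adaptors 0 were higher and 5 lower in shHMGA2 cells, with a median of -0.09. CTNNB1 (beta-catenin), which binds the cadherin tail, averaged 12.51 ± 0.049 in shHMGA2 and 12.53 ± 0.015 in control (SD, n = 3 each; limma adjusted p = 0.85). CTNNA1 (alpha-catenin) differed by -0.34 (limma adjusted p = 0.00194), AJUBA, an adaptor that binds alpha-catenin, by -0.53 (limma adjusted p = 0.000114) and PLEKHA7, a partner of p120-catenin, by -0.57 (limma adjusted p = 0.0293). The p120-catenin gene CTNND1 was not measured. Of 12 known repressors of CDH1, 2 were higher and 1 lower, with a median of -0.02. TCF4, a basic helix-loop-helix factor, averaged 8.39 ± 0.24 in shHMGA2 and 7.11 ± 0.11 in control (SD, n = 3 each; limma adjusted p = 6.23e-06). TWIST1, also of that family and known as an inducer of CDH2, was higher by 0.31 (limma adjusted p = 0.00443), and ZEB1, a zinc finger repressor, differed by -0.31 (limma adjusted p = 0.0155). SNAI2 (Slug) differed by 0.04 (95% interval -0.09 to 0.18). Among 8 cadherin proteases and turnover genes 0 were higher and 2 lower, with a median of -0.11. They were MMP14, a membrane metalloprotease (-0.69, limma adjusted p = 0.00106), and ADAM15 (-0.24, limma adjusted p = 0.0113). Of 5 nectins, adhesion proteins that lie beside cadherins in the junction, 0 were higher and 2 lower, with a median of -0.16 (NECTIN2 -0.32, PVR -0.26). Of 9 epithelial regulators 1 was higher (GRHL1 0.32) and 2 lower (EHF -0.55, KLF4 -0.36), with a median of -0.05.

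On chromosome 18 the RefSeq table places CHST9, a sulfotransferase gene, and DSC3 next to CDH2. DSC3 measured 6.52, 6.46 and 7.50 in the shHMGA2 arrays, against 5.20, 4.99 and 4.97 in the control arrays, so replicate 3 was again the highest, and the control mean, 5.06, lay under the 30th percentile. CHST9 was higher by 0.23 (SE 0.08, limma adjusted p = 0.0422), with a range of 5.63 to 5.83 in shHMGA2, against 5.39 to 5.62 in control. Next to CDH11 on chromosome 16, CDH8, a type II cadherin of brain, differed by -0.04 (limma adjusted p = 0.644). CDH5, on its other side, differed by 0.00 (95% interval -0.16 to 0.16). Both neighbours had means under the 30th percentile in both groups (CDH8 5.59 in shHMGA2 and 5.63 in control), so a fall might not have shown in them.

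Some markers of other cells were higher in the shHMGA2 arrays, as CDH2 was, and their part in the result was not tested. These lists were chosen with earlier results of these data known. Their counts stand beside 13.6% of all genes called higher and 12.6% lower. All 4 measured genes of 9p21, a region in which MDA-MB-231 is known to have lost CDKN2A, were higher. CDKN2A measured 9.64, 9.79 and 10.22 in the shHMGA2 arrays, against 7.10, 7.59 and 7.52 in the control arrays. MTAP measured 7.84, 7.97 and 8.20 in the shHMGA2 arrays, against 6.13, 6.33 and 6.40 in the control arrays. In both genes, as in CDH2, replicate 3 was the highest of shHMGA2. The log2 of the summed level of the 4 genes was 10.97 to 11.50 in shHMGA2 and 8.76 to 8.97 in control. Of 7 markers of embryonic kidney lines 4 were higher and 0 lower, led by NEFM (1.65, limma adjusted p = 1.06e-07) and NEFL (1.17, limma adjusted p = 4.8e-07), both neurofilament genes. WT1 (7.46 to 7.56 in shHMGA2, 7.13 to 7.39 in control) and CITED1 (7.63 to 7.94 and 7.08 to 7.32) also lay above control. PAX2 (6.71 to 6.94 in shHMGA2, 6.85 to 7.01 in control), LHX1 (6.53 to 6.58 and 6.41 to 6.56) and TFAP2B (5.86 to 6.01 and 5.93 to 6.22) overlapped control. The summed level of that list was 10.46 to 10.68 in shHMGA2 and 9.80 to 9.92 in control. Of 4 neuronal markers 2 were higher and 0 lower, INA, an intermediate filament gene, by 4.22 (limma adjusted p = 3.13e-10) and NCAM1 by 1.06 (limma adjusted p = 0.00031). The summed level of the 4 was 10.67 to 11.12 in shHMGA2 and 7.999 to 8.16 in control, but INA alone was 10.40 to 10.90 in shHMGA2. ELAVL4 (5.45 to 5.53 in shHMGA2, 5.43 to 5.64 in control) and STMN2 (5.91 to 6.01 and 5.89 to 6.01) overlapped control.

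Most markers of the line itself were also lower in shHMGA2 cells, with a median log2 difference of -0.28, a smaller fall than that of CDH11. The counts stand beside 13.6% of all genes called higher and 12.6% lower, and those of fibroblast and endothelial markers are near these shares. Of the 6 mesenchymal line markers 0 were higher and 5 lower in shHMGA2, with LOX, a collagen-crosslinking enzyme, at -0.52 (limma adjusted p = 0.00191) and AXL, a receptor kinase, at -0.40 (limma adjusted p = 0.00696). The log2 of their summed level was 14.72 to 14.96 in shHMGA2 and 15.13 to 15.15 in control. Fibroblast markers had 1 of 7 lower (PDGFRB -0.37) and 0 higher, with a summed level of 9.48 to 9.61 in shHMGA2 and 9.56 to 9.65 in control. Luminal and epithelial markers had 3 of 9 lower and 0 higher, with KRT19 at -0.87 and EPCAM at -0.49 and a summed level of 11.44 to 11.62 in shHMGA2, against 11.91 to 12.09 in control. Endothelial markers had 1 of 7 lower (PECAM1 -0.53) and 0 higher, with a summed level of 9.42 to 9.47 in shHMGA2 and 9.48 to 9.58 in control. The part of these markers in the CDH11 difference was not tested.

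The Tet1 and HOXA9 groups share the array set, line construction and serum, so this pair compares the 2 labels within 1 array set. As no targeted gene bore out these labels, the pair cannot show whether the 2 introduced genes act alike. No cadherin was called: 0 of 6 passed the limma threshold and 0 of 6 had an unadjusted p under 0.05, the lowest being 0.15 for CDH5. Over all genes 0.434% were called, 0.114% higher and 0.32% lower in Tet1. CDH5 measured 7.11 and 7.12 in the Tet1 arrays, against 7.12 and 6.84 in the HOXA9 arrays, and the groups overlap. Its log2 difference of 0.14 had a 95% interval of -0.06 to 0.33. CDH2 measured 6.61 and 6.59 in the Tet1 arrays, against 6.56 and 6.43 in the HOXA9 arrays. These do not overlap, but the difference of 0.10 had a 95% interval of -0.27 to 0.48 (limma adjusted p = 0.902). CDH11 measured 10.36 and 10.44 in the Tet1 arrays, against 10.39 and 10.40 in the HOXA9 arrays. These values overlap, and the interval of the difference, -0.55 to 0.57, leaves room for changes of that size in either direction. For CDH1, CDH3 and CDH6 the differences were 0.06, 0.03 and 0.05, and their intervals lay within -0.13 and 0.24. The 8 lists of related genes, other cadherins and catenins included, also held 0 called genes. Among the 7 marker lists 2 fibroblast collagen genes were called higher in Tet1, COL1A1 (0.56, limma adjusted p = 0.00845) and COL1A2 (0.46, limma adjusted p = 0.0442).

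Against control, the arrays labelled Tet1 and HOXA9 differed in 5 of 6 cadherins each, but most genes did so too. In Tet1 against control 77.1% of genes were called (53.9% higher, 23.2% lower), and in HOXA9 against control 75.7% (54% higher, 21.6% lower). The median gene was higher by 0.25 in Tet1 and 0.24 in HOXA9, but the offset differed with level. The lower quartile of an array was 6.22 to 6.25 in Tet1 and HOXA9, against 5.75 to 5.76 in control and shHMGA2. The upper quartile was 9.22 to 9.29 in Tet1 and HOXA9, against 9.19 to 9.24 in control and shHMGA2. CDH1, CDH3, CDH5 and CDH6 lay below the median of every array, so the shift of the median gene is not their yardstick. Both comparisons share the 3 control arrays. Among the 6 cadherins the median difference was 0.35 in Tet1 and 0.30 in HOXA9, with 4 higher and 1 lower in each. After quantile normalization 2 were higher and 2 lower in Tet1 and 1 higher and 2 lower in HOXA9. Over all genes that scaling called 32.6% higher and 33.3% lower in Tet1 and 29.7% higher and 34% lower in HOXA9. CDH5 was higher and CDH2 lower in both groups under all 3 scalings, and CDH11 was called under none.

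CDH5 (VE-cadherin) was 7.11 and 7.12 in the Tet1 arrays and 7.12 and 6.84 in the HOXA9 arrays, against 5.95, 6.01 and 5.92 in the control arrays. Neither group overlapped control. The log2 difference was 1.16 in Tet1 (95% interval 0.98 to 1.33, limma adjusted p = 1.92e-07) and 1.02 in HOXA9 (95% interval 0.84 to 1.196, limma adjusted p = 5.39e-07). It was 0.60 and 0.47 after quantile normalization, and 0.69 and 0.56 with equal array medians, for Tet1 and HOXA9 in that order, called each time. The control mean, 5.96, lay under the 30th percentile, so the fold can understate the change in RNA. The lower quartile of the arrays was itself higher in Tet1 and HOXA9, so the deposited fold can also overstate it.

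Endothelial markers moved with CDH5, and their part in the result was not tested. Of 7, 6 were higher and 1 lower in Tet1 and 5 higher and 1 lower in HOXA9, beside 53.9% and 54% of all genes higher. With quantile normalization 4 were higher and 1 lower in each, beside 32.6% and 29.7% of all genes higher. With equal array medians 4 were higher and 2 lower in each, beside 21.9% and 20.3% of all genes higher. TIE1, an endothelial receptor kinase, differed by 1.82 in Tet1 and 1.70 in HOXA9, and PECAM1 (CD31) by 1.26 and 1.204, while KDR, a VEGF receptor, differed by -0.39 and -0.56. The log2 of their summed level was 10.40 to 10.45 in Tet1 and 10.29 to 10.35 in HOXA9, against 9.48 to 9.58 in control. EMCN (endomucin) stayed under the 30th percentile in every group, at 5.49 in Tet1, 5.33 in HOXA9 and 5.25 in control. VWF averaged 6.51 ± 0.020 in Tet1 and 6.44 ± 0.21 in HOXA9 (SD, n = 2 each), against 6.03 ± 0.072 in control (SD, n = 3).

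Other marker lists also held genes called in Tet1 and HOXA9 against control, and their part in the cadherin differences was not tested. Their counts stand beside shares of all genes. As deposited these were 53.9% higher and 23.2% lower in Tet1 and 54% and 21.6% in HOXA9. With quantile normalization they were 32.6% and 33.3% in Tet1 and 29.7% and 34% in HOXA9. With equal array medians they were 21.9% and 51.4% in Tet1 and 20.3% and 51.1% in HOXA9. Of 7 fibroblast markers 6 were higher and 0 lower in each group, and with quantile normalization 5 and 0. COL1A2 was higher by 1.79 in Tet1 and 1.34 in HOXA9, and COL3A1 by 1.30 and 1.04, both called under all 3 scalings. The log2 of the summed fibroblast level was 10.79 to 10.81 in Tet1 and 10.39 to 10.44 in HOXA9, against 9.56 to 9.65 in control. Of 9 luminal and epithelial markers 6 were higher and 1 lower in Tet1 and 5 higher and 0 lower in HOXA9, and with equal array medians 4 higher and 4 lower in each. Among them CLDN4 (claudin 4), a tight junction protein, was higher by 1.65 in Tet1 and 1.70 in HOXA9 and was called under all 3 scalings. Their summed level was 12.57 to 12.66 in Tet1 and 12.53 to 12.59 in HOXA9, against 11.91 to 12.09 in control. Of the 7 embryonic kidney markers 4 were higher and 1 lower in Tet1 and 4 higher and 2 lower in HOXA9, but with quantile normalization 2 higher and 3 lower in each. Of the 6 mesenchymal line markers 4 were higher and 2 lower in Tet1 and 3 higher and 2 lower in HOXA9, but with equal array medians 0 were higher in Tet1 and 1 in HOXA9, and 3 lower in each. Of the 4 neuronal markers 3 were higher and 1 lower in Tet1 and 1 higher and 1 lower in HOXA9, and with quantile normalization 0 were higher and 2 lower in Tet1 and 0 higher and 4 lower in HOXA9. Of the 4 genes of 9p21 as deposited 0 were called in Tet1 and 1 was lower in HOXA9, and 3 were lower in each under both other scalings.

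CDH2 (N-cadherin) was 6.61 and 6.59 in the Tet1 arrays and 6.56 and 6.43 in the HOXA9 arrays, against 6.94, 7.10 and 6.90 in the control arrays. All 4 arrays lay below control. Within the array CDH2 stood on average at percentile 30.4 in Tet1 and 28.8 in HOXA9, against 46.3 in control. In Tet1 and HOXA9 it was thus near the 30th percentile of its own arrays and may be background alone. The log2 difference was -0.38 in Tet1 (95% interval -0.72 to -0.04, limma adjusted p = 0.0427) and -0.48 in HOXA9 (95% interval -0.83 to -0.14, limma adjusted p = 0.0141). After quantile normalization it was -0.93 in Tet1 and -1.02 in HOXA9, and with equal array medians -0.85 and -0.94, over 1.5 times as large. As deposited, the call in Tet1 was lost without control replicate 1 (adjusted p = 0.0608), control replicate 2 (0.115), Tet1 replicate 1 (0.122) or Tet1 replicate 2 (0.141), and the call in HOXA9 without HOXA9 replicate 2 (0.0959).

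CDH6 (K-cadherin) was 6.30 and 6.15 in the Tet1 arrays and 6.23 and 6.11 in the HOXA9 arrays, against 5.63, 5.63 and 5.54 in the control arrays. The groups did not overlap control, and all group means lay under the 30th percentile. The log2 difference was 0.63 in Tet1 (limma adjusted p = 6.73e-06) and 0.57 in HOXA9 (limma adjusted p = 1.58e-05). It was 0.17 in Tet1 (limma adjusted p = 0.0365) and 0.13 in HOXA9 (limma adjusted p = 0.117) after quantile normalization. With equal array medians it was 0.16 in Tet1 (limma adjusted p = 0.0444) and 0.12 in HOXA9 (limma adjusted p = 0.13).

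The epithelial cadherins turned with the scaling. CDH1 (E-cadherin) was 5.93 and 6.14 in the Tet1 arrays and 5.93 and 6.01 in the HOXA9 arrays, against 5.72, 5.65 and 5.61 in the control arrays. As deposited no array overlapped control, with differences of 0.37 in Tet1 (limma adjusted p = 0.000534) and 0.31 in HOXA9 (limma adjusted p = 0.00218). After quantile normalization they were -0.06 and -0.11 and were not called. CDH3 (P-cadherin) was 6.78 and 6.72 in the Tet1 arrays and 6.73 and 6.70 in the HOXA9 arrays, against 6.42, 6.44 and 6.42 in the control arrays. It was higher by 0.32 in Tet1 (limma adjusted p = 0.000728) and 0.29 in HOXA9 (limma adjusted p = 0.00158) as deposited. After quantile normalization it was called lower in both, at -0.25 (limma adjusted p = 0.00296) and -0.27 (limma adjusted p = 0.00182). Neither gene had a direction that held across scalings in these 2 comparisons. CDH11 (OB-cadherin) was 10.36 and 10.44 in the Tet1 arrays and 10.39 and 10.40 in the HOXA9 arrays, against 9.80, 10.39 and 10.58 in the control arrays. The groups overlap, and the difference was 0.14 in Tet1 (95% interval -0.37 to 0.65) and 0.13 in HOXA9 (95% interval -0.38 to 0.65).

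**Figure D3:**
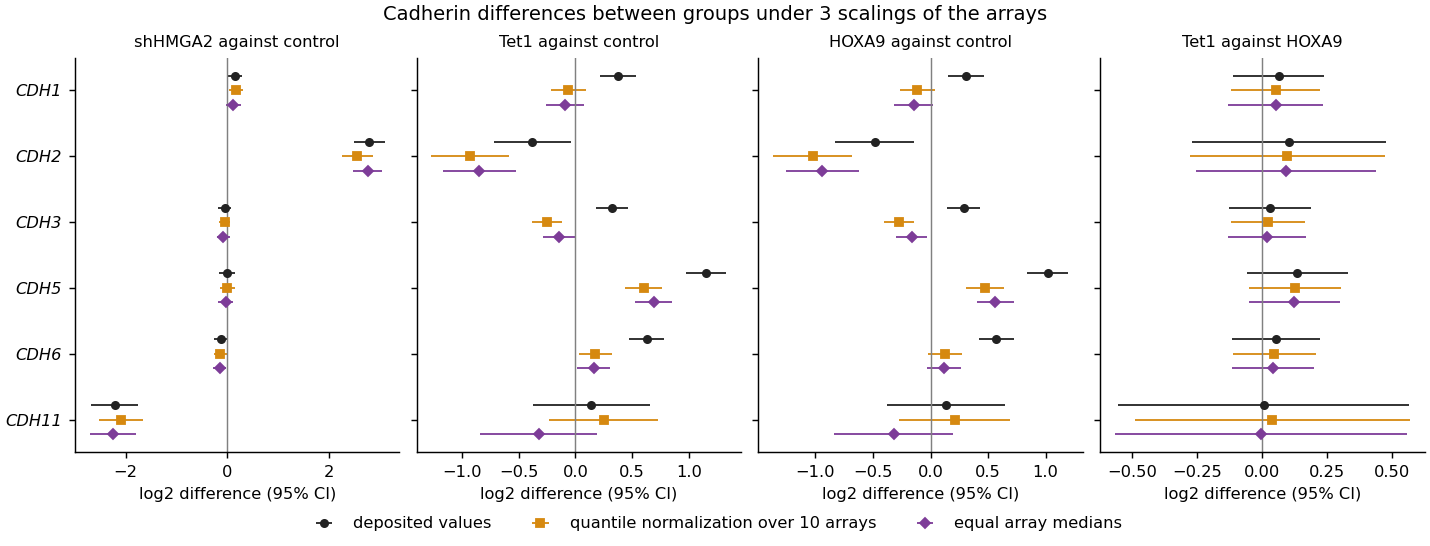
Log2 differences (horizontal axes, of different range per panel) with 95% intervals for the 6 cadherins in 4 comparisons, each from the deposited values, after quantile normalization over 10 arrays and with equal array medians. The scalings nearly coincide in shHMGA2 against control and in Tet1 against HOXA9. Against control, CDH1 and CDH3 change side in Tet1 and HOXA9, while CDH5 stays right of 0 and CDH2 left of it.

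Other junction genes also separated Tet1 and HOXA9 from control under all 3 scalings. JUP (plakoglobin), a catenin of both junction types, was higher by 1.13 in Tet1 (limma adjusted p = 4.58e-05) and 0.97 in HOXA9 (limma adjusted p = 0.000166). AJUBA differed by -0.91 and -1.12, and SNAI2, a repressor of CDH1, by -1.11 and -0.997. PCDH18 was higher by 2.45 and 2.66 and PCDH9 by 2.05 and 2.02, the largest changes among the 22 protocadherins and atypical cadherins. Of these 22, 18 were higher and 1 lower in Tet1 and 17 higher and 1 lower in HOXA9. With quantile normalization 11 were higher and 3 lower in Tet1 and 6 higher and 3 lower in HOXA9. With equal array medians the counts were 9 higher and 4 lower in Tet1 and 7 higher and 4 lower in HOXA9. Of the 12 repressors of CDH1, 9 were higher and 1 lower in each. With quantile normalization 6 were higher and 1 lower in Tet1 and 5 higher and 1 lower in HOXA9. With equal array medians 6 were higher and 3 lower in Tet1 and 5 higher and 3 lower in HOXA9. Over all genes as deposited, 53.9% were higher and 23.2% lower in Tet1 and 54% higher and 21.6% lower in HOXA9. Quantile normalization gave 32.6% higher and 33.3% lower in Tet1 and 29.7% higher and 34% lower in HOXA9. Equal array medians gave 21.9% higher and 51.4% lower in Tet1 and 20.3% higher and 51.1% lower in HOXA9.

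The shHMGA2 cells were also set against the arrays labelled Tet1 and HOXA9. Against Tet1 all 6 cadherins were called, 1 higher and 5 lower, beside 80.1% of all genes (24.9% higher, 55.2% lower). Against HOXA9 5 were called, 1 higher and 4 lower, beside 78.8% of all genes (23.5% higher, 55.3% lower). The sign of CDH1 and CDH3 turned under both other scalings, but CDH3 with equal array medians did not pass (limma adjusted p = 0.338 against Tet1 and 0.224 against HOXA9). As deposited, the CDH1 call against Tet1 was lost without Tet1 replicate 2 (limma adjusted p = 0.24). CDH2 was higher by 3.18 against Tet1 (limma adjusted p = 1.2e-08) and by 3.28 against HOXA9. CDH11 differed by -2.36 against Tet1 (limma adjusted p = 1.96e-06) and by -2.35 against HOXA9 (limma adjusted p = 2.3e-06). With quantile normalization and equal array medians CDH2 was higher by 3.49 and 3.61 against Tet1 and by 3.59 and 3.71 against HOXA9. CDH11 then differed by -2.34 and -1.92 against Tet1 and by -2.30 and -1.93 against HOXA9, all called. CDH5 differed by -0.60 and -0.72 against Tet1 and by -0.47 and -0.59 against HOXA9, and CDH6 by -0.31 and -0.31 against Tet1 and by -0.26 and -0.27 against HOXA9 under these scalings, all called. CDH2 thus ordered as shHMGA2, control, Tet1 and HOXA9 from high to low, with Tet1 and HOXA9 not told apart by the test. For CDH11, Tet1, HOXA9 and control were not told apart, and shHMGA2 lay below them. CDH5, CDH6 and CDH3 ordered as 2 pairs as deposited, Tet1 with HOXA9 above shHMGA2 with control, with CDH3 turned round after quantile normalization, and CDH1 had no step between neighbouring groups that passed.

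Likeness of pattern was measured as the root-mean-square distance over the 10 arrays after each gene's own mean was subtracted, for cadherins whose group means spanned at least 1. The genes nearest to CDH2 were ELOVL2, an elongase of polyunsaturated fatty acids (distance 0.11), SEPTIN3, a septin of neurons (0.13), and RADX, a replication fork protein (0.16). ELOVL2 averaged 8.71 in shHMGA2, 5.44 in Tet1 and 5.32 in HOXA9, against 5.89 in control. The last 3 means lie under 6.26, so ELOVL2 passed the filter on low values only through shHMGA2. The genes nearest to CDH11 were ENTPD3, an ectonucleotidase (0.28), GALNT5, a glycosyltransferase (0.35), and CST2, a salivary cystatin (0.36). ENTPD3 averaged 6.75 in shHMGA2, 9.23 in Tet1 and 9.08 in HOXA9, against 8.79 in control. For CDH5 the nearest were CSHL1, a growth hormone family gene of placenta (0.035), IL17D, a cytokine (0.040), and LDLRAD2 (0.044). CSHL1 averaged 8.39 in Tet1 and 8.26 in HOXA9, against 7.29 in shHMGA2 and 7.24 in control. The pattern of CSHL1 divided the arrays by set as that of CDH5 did, which follows from its choice by likeness.

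**Figure D4:**
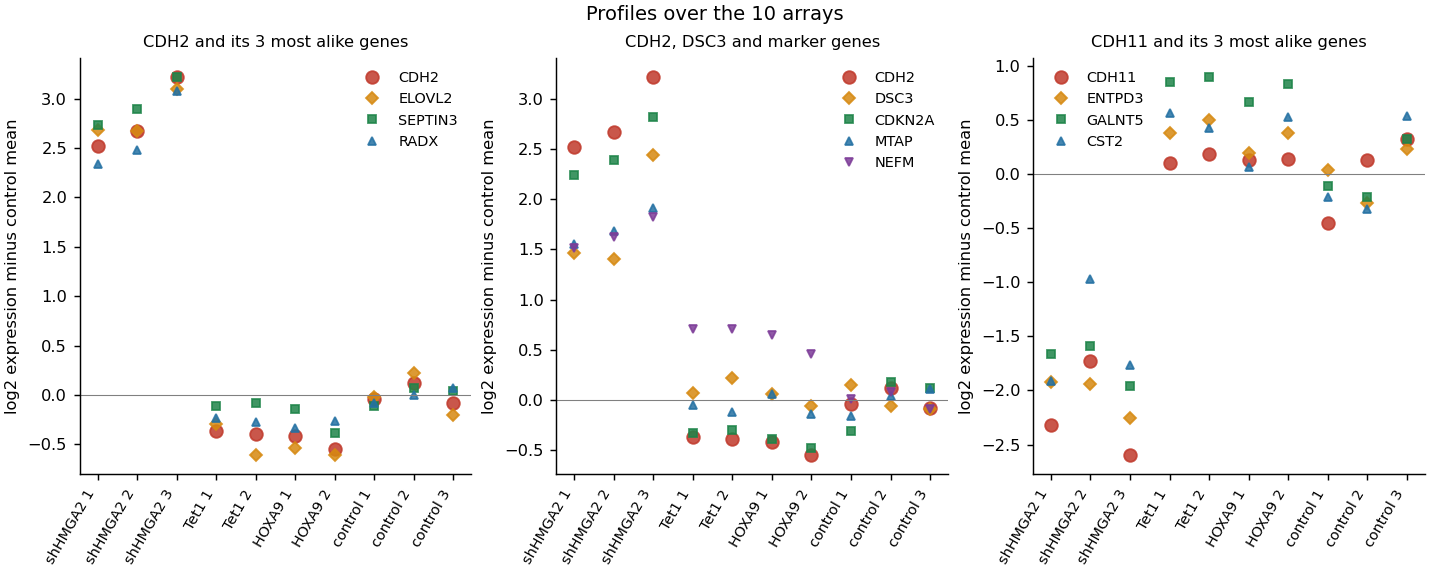
Log2 expression minus the control mean (vertical axes) on the 10 arrays for CDH2 with its 3 most alike genes, for CDH2 with DSC3, CDKN2A, MTAP and NEFM, and for CDH11 with its 3 most alike genes. Each point is 1 array and each symbol 1 gene. CDH2, DSC3 and the marker genes are highest on shHMGA2 replicate 3. The alike genes are highest there too, but they were chosen by likeness to CDH2 over these same arrays.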

How the data were processed

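The authors deposited a table of log2 expression values for 33297 probe sets in 12 columns, for which the submitters' processing notes name RMA and R 2.11. No source used here says whether the arrays were normalized in 1 run. In Tet1 and in HOXA9, replicate 3 matched the average of the other replicates within 1e-06, so these 2 columns were not used. Of the probe sets, 19460 had 1 gene symbol, 1754 several and 12083 none in the platform annotation. For the 769 genes with over 1 such probe set the highest-mean one was taken, which left 18417 genes. The 10 arrays were fitted with limma 3.58.1 under R 4.3.3, with 1 mean per group, lmFit and eBayes (degrees of freedom 6 residual, 5.65 prior). Two-sided p-values were adjusted over all genes by Benjamini and Hochberg's method and called under 0.05. Alternatives were quantile normalization, equal array medians, all 12 columns, 2 groups per fit, a filter on dim genes, the mean of probe sets, a variance trend, a replicate block and leaving out each array. The method was tested on simulated data. The cadherins and the 8 gene lists and 7 marker lists were chosen with earlier results of these data known. From each list up to 2 called genes per direction are named. CTNNB1, CTNNA1, SNAI2 in shHMGA2, CDH10, MTAP, VWF, EMCN and the further protocadherins were named after their values were seen. The same holds for the genomic neighbours of CDH2 and CDH11, and for ELAVL4, STMN2, PAX2, LHX1, TFAP2B, WT1 and CITED1 in shHMGA2. The 3 nearest genes by pattern are named where group means spanned at least 1, among genes above the 30th percentile. The number of arrays limits the precision.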

Additional observations from a re-analysis of the deposited data

How the results depend on the processing

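The 2 calls in shHMGA2 against control (CDH2 higher, CDH11 lower) held under every alternative run. CDH2 lay at 2.59 to 2.94 and CDH11 at -2.46 to -2.02 without any 1 array, and at 2.56 to 2.80 and -2.25 to -2.09 under the other settings, and the count of called cadherins was 2 without any 1 array and 3 with all 12 columns, where CDH1 was added. Tet1 against HOXA9 gave 0 calls among the cadherins under every alternative. The counts across the array sets were less stable. HOXA9 against control fell to 3 called cadherins under quantile normalization, 3 with equal array medians and 3 of the 4 left by the filter on dim genes, and Tet1 against control to 3 with equal array medians and 3 under that filter. Without 1 array, both counts ranged from 4 to 5, shHMGA2 against Tet1 from 5 to 6, and shHMGA2 against HOXA9 stayed at 5. CDH1 and CDH3 reversed across the sets, with values given first for quantile normalization and then for equal array medians. In Tet1 against control CDH1 was -0.061 and -0.094 and CDH3 -0.25 and -0.15. In HOXA9 against control CDH1 was -0.11 and -0.15 and CDH3 -0.27 and -0.16. In shHMGA2 against Tet1 CDH1 was 0.24 and 0.22 and CDH3 0.20 and 0.069. In shHMGA2 against HOXA9 CDH1 was 0.30 and 0.27 and CDH3 0.22 and 0.089. These scalings set the array medians level by construction, and the cause of the offset was not tested. Sign changes where neither value was called numbered 14 of 456 values. Over all genes, called genes in Tet1 against control were 69.9% higher as deposited, 49.4% under quantile normalization and 29.9% with equal array medians, and in HOXA9 against control 71.4%, 46.6% and 28.4%. Tet1 against HOXA9 had 21 genes higher and 59 lower, but 454 and 658 with all 12 columns, where averages count as replicates, 55 and 90 under quantile normalization, and 44 and 99 with 2 groups only. Leaving out 1 of its arrays gave as few as 4 higher and 7 lower. Same-numbered control and shHMGA2 arrays correlated at 0.164, 0.140 and 0.0017 in their deviations from the group mean. The labels do not say whether same-numbered arrays were prepared together, and these correlations cannot settle it. With the replicate number as a block CDH2 in Tet1 against control was -0.30 (limma adjusted p = 0.107), and the block changed the call of no other cadherin.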
